A study of Mus musculus with 22 samples.

Results

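Collagens, laminins and other matrix genes were followed through RNA-Seq and Ribo-Seq of mouse cortical neural stem cells (NSCs) in which Musashi RNA-binding proteins were induced or deleted. The genes were every collagen chain (Col, number, a, number) and every laminin chain (Lama, Lamb, Lamc) by symbol, together with Tnc, Tnr, Fbn1, Fbn2, Sparc, Thbs1, Bcan, Ncan, Vcan, Hspg2, Nid1, Nid2, Timp1, Timp2, Timp3 and Mmp2. This gave 70 of the 23081 genes in the Ribo-Seq tables, made up of 43 collagen chains, 11 laminin chains and 16 others. Of these 70 genes, 66 were also among the 22623 genes of the RNA-Seq files, and Col6a5, Col15a1, Col16a1 and Col25a1 had footprint values only.

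The NSCs came from embryonic cortex, at E12.5 unless E13.5 is given, and were grown on laminin with EGF and bFGF. KH2 cells carry the reverse tetracycline transactivator (rtTA) at the Rosa26 locus and no Musashi transgene. The tetO-Msi1 and tetO-Msi2 cells carry the same rtTA and a tetracycline-inducible Msi1 or Msi2 cDNA, which sits at the Col1a1 locus, itself the locus of a gene described here. These 3 lines, called the tet lines here, were compared with and without doxycycline (Dox, 1 µg/ml for 72 h). The E13.5 set held untreated KH2 cells, and tetO-Msi1 cells in both states. C1 and C4 cells carry floxed Msi1 and Msi2 alleles, C4 also carries a tamoxifen-inducible Cre and C1 has none, and both were compared with and without 4-hydroxytamoxifen (4-OHT, 48 h). Ribo-Seq was done at E12.5 in KH2, tetO-Msi1, C1 and C4 cells. Each condition had 1 library, so lines or stages serve as the repeats in every test below, and p-values measure the spread between those pairs of libraries.

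The extracellular matrix is built from secreted proteins that assemble outside the cell. Fibrillar collagens (types I, II, III, V and XI) form fibres, whereas type IV collagen, laminin trimers, nidogens and perlecan (Hspg2) form the basement membrane, to which NSCs attach through integrins. In the developing brain the matrix between cells is poor in fibrillar collagen and rich in the hyaluronan-binding proteoglycans neurocan (Ncan), brevican (Bcan) and versican (Vcan), and in the tenascins Tnc and Tnr. Matrix metalloproteinases such as Mmp2 degrade matrix proteins and are inhibited by the Timp proteins.

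The RNA-Seq files held 7889966 to 22248145 counted reads in the 6 libraries of the 3 tet lines at E12.5, 27973879 to 60791605 in the 3 conditions of E13.5, and 45750593 to 58435172 in the 4 libraries of C1 and C4. The Ribo-Seq columns held 657288 to 6381242 reads. The 70 genes took 0.592% to 1.22% of the RNA-Seq counts and 0.294% to 0.998% of the footprint counts. Levels of mRNA are given as normalised RPKM, computed from the counts, the deposited gene lengths and TMM factors over all 13 libraries, because the deposited RPKM values use a different share of reads as their base in each set of libraries. With Dox, Msi1 mRNA was 5.43-fold higher in tetO-Msi1 cells at E12.5 and 3.81-fold higher at E13.5, and Msi2 mRNA was 5.43-fold higher in tetO-Msi2 cells. In the same tetO-Msi1 pairs Msi2 mRNA went from 206 to 128 normalised RPKM at E12.5 and from 199 to 85.1 at E13.5. With 4-OHT, Msi2 mRNA in C4 cells went from 123 to 13.6 normalised RPKM, whereas Msi1 read 29.5 and 28.2, and whether the counted Msi1 exons include the deleted part was not tested. Markers of neural stem cells summed to between 13348 and 18362 normalised RPKM in every library and all 8 of those read were above 1. Endothelial markers summed to at most 20.9 and microglial markers to at most 14.9, with Cdh5, Cldn5, Tie1, Aif1, Cx3cr1 and Itgam below 0.1 in each set of libraries. Mural markers summed to between 152 and 511 and mesenchymal markers to between 53.0 and 195, with Abcc9, Anpep, Foxc2, Foxd1, Lum, Snai2 and Twist2 below 0.1 in each set, whereas Acta2 reached 384, Notch3 271, Tagln 127, Prrx1 105 and Pdgfra 56.5.

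Proteoglycans and glycoproteins, not collagens, held most of the matrix mRNA in these cells. Ncan led with a mean of 1138 normalised RPKM over the 13 libraries, followed by Bcan with 729, Sparc, a collagen-binding glycoprotein, with 664 and Tnc with 279. These 4 genes made up 65.1% of the summed mean level of the 66 genes. Of the 66 genes, 43 had a mean of at least 1 and 7 had a mean below 0.1. Timp3 (212) and Timp2 (120.4), the laminin chains Lamc1 (120.0) and Lamb2 (98.0), and Col11a1 (91.8), Col5a2 (86.3), Vcan (83.4) and Col4a5 (82.8) completed the first 12. The highest collagen chains were thus of types XI, V and IV, and the chains of the classical fibrillar collagens were near the floor. Col1a1 lay between 0.273 and 2.22 normalised RPKM, Col1a2 had a mean of 0.163 and Col3a1 a mean of 0.319. Col6a6 had no read in any of the 13 libraries, which with a floor of 3 counts allows up to 0.00674 CPM, and this limit covers counting error only. Col24a1 and Col10a1 had means of 0.00661 and 0.00899.

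**Figure D1:**
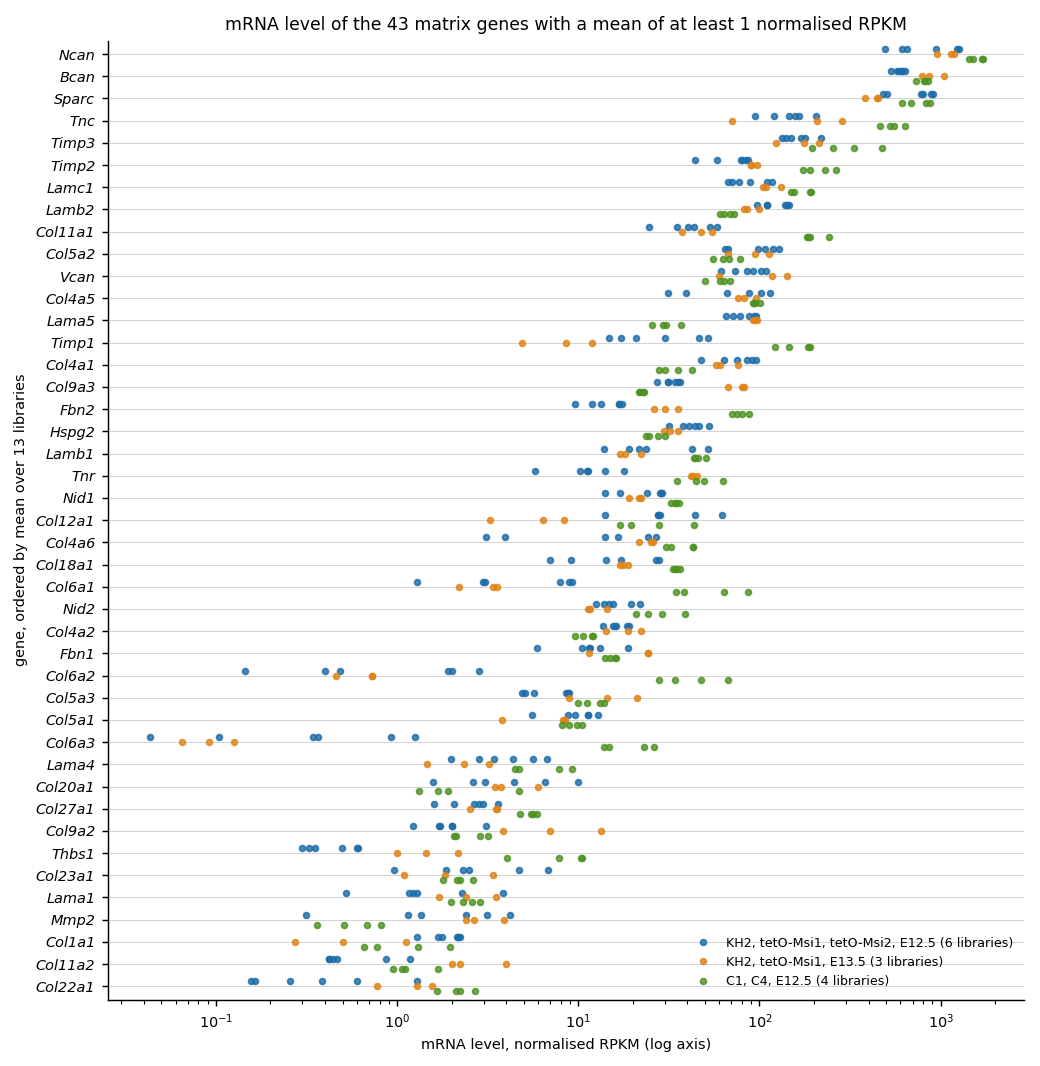
mRNA level in normalised RPKM (log axis) of the 43 genes with a mean of at least 1, each point 1 library and colours marking the 3 sets of libraries. Ncan, Bcan and Sparc lie far above the collagen chains, and Col6a1, Col6a2, Col6a3 and Thbs1 are the genes whose C1 and C4 points stand furthest above the others.

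Basement membrane chains were read at unequal levels. The type IV chains are made from 3 pairs of genes that lie head to head. Col4a1 and Col4a2 start on opposite strands of chromosome 8 (mm9, chr8:11198423-11312826 and chr8:11312805-11449287), and their annotated ends overlap. Col4a1 ranged from 27.8 to 95.3 normalised RPKM and Col4a2 from 9.55 to 22.2. Col4a5 ranged from 31.4 to 114 and Col4a6 from 3.09 to 43.0. Col4a3 and Col4a4, the chains of kidney and lung basement membranes, were hardly read, at no more than 0.197 and 0.373. In every library Col4a1 was thus above Col4a2, and Col4a5 above Col4a6, although the type IV trimer of Col4a1 and Col4a2 holds both chains. Of the laminin chains, Lama5, Lamb2 and Lamc1, which form laminin-521, had means of 69.1, 98.0 and 120.0, and Lamb1 had 31.8. The other alpha chains were low, Lama4 with 4.48, Lama1 with 2.13, Lama3 with 0.953 and Lama2 with 0.916. Lamb3, a chain of epithelial laminin, and Lamc3 had means of 0.140 and 0.299.

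The first comparison asked how matrix mRNAs changed when Msi1 was induced, with tetO-Msi1 cells of both stages as repeats. Of 44 matrix genes tested, 11 fell and 2 rose in edgeR's quasi-likelihood test (Benjamini-Hochberg adjusted p below 0.05). Over all 11938 genes tested, 3.60% were called, 1.82% lower and 1.78% higher. The median log2 change of the 44 genes was −0.22, beside −0.01 over all genes. The genes that fell were Tnc, Vcan and Fbn1, all 3 chains of type V collagen, Col12a1, Col6a1, and the laminin chains Lama1, Lama4 and Lamb1.

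Tnc, an adhesion-modulating glycoprotein of the NSC niche, had 165 normalised RPKM without and 94.1 with Dox in E12.5 tetO-Msi1 cells, and 208 and 70.8 at E13.5. In tetO-Msi2 cells the values were 205 and 119.8, and in KH2 cells 156 and 146. The 3 induced libraries were each lower than their own untreated library, and KH2 moved little. The log2 change in tetO-Msi1 cells was −1.18 ± 0.157 (SE, adjusted p = 1.48e-10). Fbn1, the main subunit of microfibrils, had 13.3 and 5.95 without and with Dox in E12.5 tetO-Msi1 cells, 24.2 and 11.5 at E13.5, 18.9 and 11.6 in tetO-Msi2 cells, and 10.5 and 11.5 in KH2 cells. All 3 induced pairs again went down and KH2 did not, with a log2 change in tetO-Msi1 cells of −1.10 ± 0.161 (adjusted p = 1.09e-08).

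The type V collagen chains, which set the diameter of collagen fibres and were here far more abundant than type I, went down together in tetO-Msi1 cells. Col5a1 had 11.3 without and 5.53 with Dox at E12.5 and 8.19 and 3.78 at E13.5, and its log2 change was −1.07 ± 0.184 (adjusted p = 3.12e-06). Col5a2 had 128 and 66.7 at E12.5 and 113 and 67.2 at E13.5, with a log2 change of −0.83 ± 0.155 (adjusted p = 2.54e-05). Col5a3 had 8.90 and 5.68 at E12.5 and 21.2 and 8.86 at E13.5, with a log2 change of −0.99 ± 0.181 (adjusted p = 1.54e-05). In tetO-Msi2 cells, Col5a1 went from 12.9 to 9.60 and Col5a2 from 97.7 to 64.7, whereas Col5a3 was 5.08 and 4.89. In KH2 cells Col5a1 was 8.73 and 11.3, Col5a2 119 and 107 and Col5a3 8.74 and 8.51, and Col5a1 thus went up in KH2 cells and down in the induced lines.

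Col12a1, a fibril-associated collagen, had 28.1 and 14.1 normalised RPKM without and with Dox in tetO-Msi1 cells at E12.5, and 6.38 and 3.25 at E13.5. It had 61.7 and 44.0 in tetO-Msi2 cells and 27.4 and 27.5 in KH2 cells. Its level was cut by about the same factor at both stages although the starting levels differed, and the log2 change was −0.98 ± 0.159 (adjusted p = 6.53e-07). Lama1, the alpha chain of early embryonic laminin, was low throughout, with 1.29 and 0.523 at E12.5 and 3.49 and 1.70 at E13.5 (log2 change −1.12 ± 0.216, adjusted p = 5.60e-05). Vcan had 109 and 72.8 at E12.5, 117 and 59.7 at E13.5, 102 and 61.5 in tetO-Msi2 cells, and 91.8 and 85.2 in KH2 cells. Its log2 change in tetO-Msi1 cells was −0.78 ± 0.174 (adjusted p = 8.53e-04). The 3 other genes that fell had log2 changes of −0.96 (Col6a1), −0.86 (Lama4) and −0.57 (Lamb1). The 2 genes that rose, Col2a1 and Col11a2, are cartilage collagen chains and were near 1 normalised RPKM. Col11a2 had 0.419 and 1.18 at E12.5 and 2.22 and 4.01 at E13.5 (log2 change 1.03 ± 0.285, adjusted p = 0.0139), and Col2a1 had 0.384 and 0.579, and 1.09 and 2.94 (log2 change 1.24 ± 0.340, adjusted p = 0.0128).

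**Figure D2:**
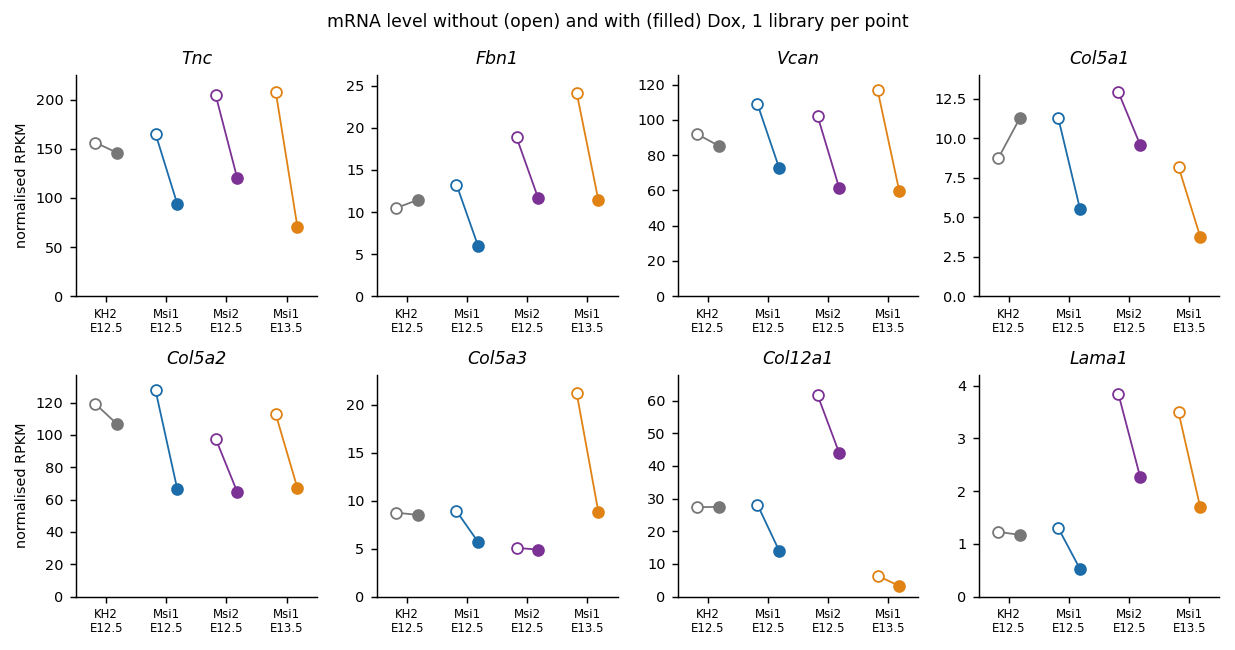
Normalised RPKM (linear axis from 0) of 8 genes that fell in tetO-Msi1 cells, without (open) and with (filled) Dox, 1 library per point, in the 4 pairs of libraries. For Tnc, Fbn1, Vcan, Col5a1, Col5a2, Col12a1 and Lama1 the filled point lies below the open one in all 3 induced pairs, while the 2 KH2 points lie close together or, for Col5a1, the other way round.

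These calls rest on the pairing by stage and on a spread pooled over genes (1 residual degree of freedom, infinite prior degrees of freedom). Without the stage term 0 genes of 11938 passed. In that fit 4 of the 44 matrix genes had an unadjusted p below 0.05, and the number over all genes was not counted. DESeq2 called 8 of 40 matrix genes, all lower, beside 104 of all 11243 genes. In DESeq2, Col11a2 (adjusted p = 0.320) and Col2a1 (0.586) lost their call. Gfap (log2 change −0.77), Snap25 (−1.49) and Pdgfra (−0.54), a marker each of astrocytes, neurons and mesenchyme, also fell in this test, 1 of 5, 1 of 5 and 1 of 4 tested markers of their lists, and their part in the result was not tested. In bulk samples, fewer cells of a type and less RNA per cell cannot be told apart.

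A second test asked what induction of either Musashi gene added to Dox alone, with KH2 as the control and the 3 induced pairs as repeats. In edgeR's quasi-likelihood test 0 of 12167 genes were called (0%), among them 0 of 45 matrix genes. At an unadjusted p below 0.05 there were 584 genes, 12 of them matrix genes, and DESeq2 also called 0. The median log2 change of the 45 genes was −0.30, with 32 below 0, beside −0.00 over all genes. The 6 largest negative values among the 12 were −1.21 ± 0.284 for Col5a1, −1.16 ± 0.358 for Col11a1, −1.09 ± 0.219 for Fbn1, −1.08 ± 0.349 for Col6a1, −0.94 ± 0.267 for Tnc and −0.91 ± 0.310 for Lama1, with adjusted p of 0.937 to 0.949. With 1 KH2 pair the control is not repeated. Leaving out 1 induced pair at a time gave 1 or 2 matrix genes (Tnc, Fbn1 or Col5a1, all lower), and testing all genes without a filter on low counts gave these 3. Over all genes, 10 of 12044 were called without E12.5 tetO-Msi1, 8 of 12081 without tetO-Msi2 and 20 of 11969 without E13.5 tetO-Msi1. Without the filter 20 of 16849 were called.

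With Dox as the only term over the 3 tet lines at E12.5, 2 of 45 matrix genes fell and none rose, where 0.451% of the 11969 genes tested were called, 0.292% lower and 0.159% higher. These were Tnc (log2 change −0.56 ± 0.108) and Col5a2 (−0.56 ± 0.107), both with an adjusted p of 0.0408. The unadjusted p was below 0.05 for 19 matrix genes and for 1653 of all 11969 genes, and DESeq2 called no matrix gene. Without the KH2 pair, which has no transgene, 14 of 43 matrix genes were called, all lower, beside 510 of all 11838 genes. Without the tetO-Msi2 pair 1 of 44 was called, beside 24 of all 11836 genes. The median of the 45 genes was −0.22, beside −0.00 over all genes.

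Within single pairs, 2-fold changes of matrix mRNAs were few (log2 ratios after 0.5 was added to each deposited RPKM, mean RPKM of at least 1). None of 31 matrix genes passed 2-fold in KH2 cells, where 0.0984% of all genes did, none of 29 in E12.5 tetO-Msi1 cells (0.354%) and none of 27 in tetO-Msi2 cells (0.387%). The added 0.5 shrinks the ratios of low RPKM values. In E12.5 tetO-Msi1 cells, deposited RPKM without and with Dox was 2.04 and 0.922 for Fbn1 and 1.73 and 0.856 for Col5a1. Both fell more than 2-fold before the 0.5 was added. In E13.5 tetO-Msi1 cells, 2 of 32 passed, both lower (0.916% of all genes). These were Tnc and Col5a3, given here as ratios of deposited RPKM without the added 0.5. Tnc had 26049 and 7408 reads and a log2 ratio of −1.46 (95% counting interval −1.50 to −1.42). Col5a3 had 3238 and 1131 reads and a log2 ratio of −1.17 (−1.27 to −1.08). The spread of the whole group was clearer than these limits. The median log2 ratio of the matrix genes was −0.37 in E12.5 tetO-Msi1 cells, with 27 of 29 below 0, and −0.21 in tetO-Msi2 cells, with 22 of 27 below 0. It was −0.04 in KH2 cells and 0.01 in E13.5 tetO-Msi1 cells, where 15 of 32 were below 0. The medians of all genes in these 4 pairs were −0.01, 0.03, −0.04 and 0.08 in the same order.

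**Figure D3:**
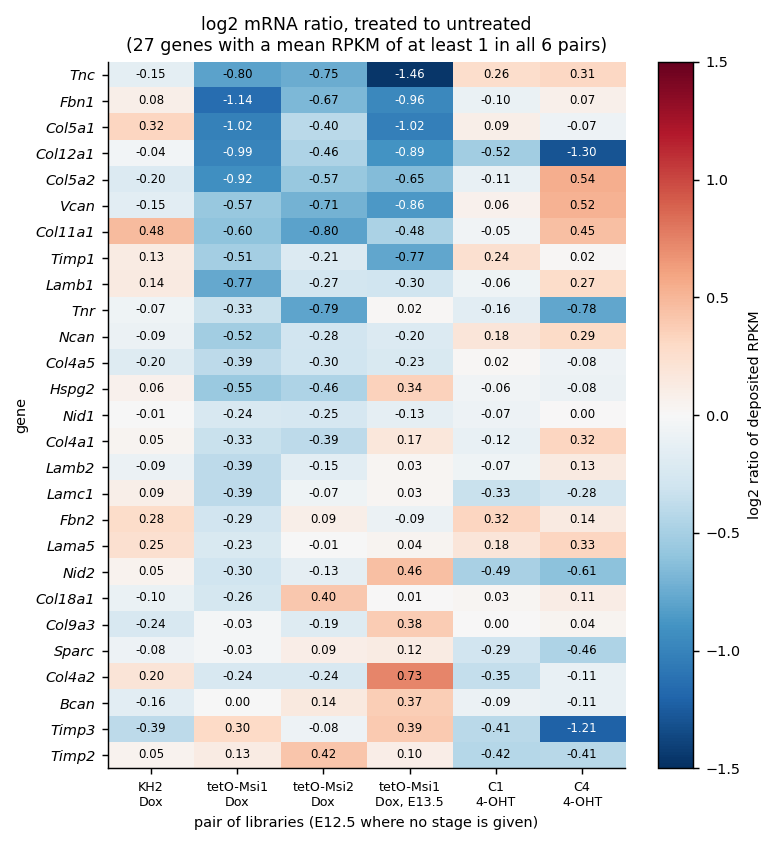
log2 ratio of deposited RPKM, treated to untreated, for the 27 genes whose mean RPKM reached 1 in all 6 pairs of libraries, ordered by their mean in the 3 induced pairs, with the value written in each cell and blue for lower. Among them 12 genes are lower in all 3 induced pairs and 1 is higher, and C4 with 4-OHT holds the strong drops of Col12a1 and Timp3. The share of all genes that are lower or higher in all 3 induced pairs was not counted.

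To show the letters that Musashi proteins are known to favour, the 3′ UTRs of the genes that fell were searched for GTAGT and ATAGT (the DNA form of GUAGU and AUAGU) taking the longest one listed per gene (GENCODE vM1, NCBIM37, the build of the files). At least 1 copy was present in 8 of the 11 genes that fell, beside 57.7% of the 20007 genes with a 3′ UTR and 65.5% of the 10326 whose mean RPKM reached 1. The density was 1.04 copies per kb in the 11 genes and 1.37 per kb over all genes. Tnc, which had the largest change, had no copy in 648 nt, nor had Col5a1 in 2498 nt or Lama1 in 196 nt. Vcan had 5 in 1921 nt and Lama4 had 2 overlapping copies in 155 nt. One stretch of 21 bases is given for each of 7 genes, 5′ to 3′ on the strand of the mRNA, with the searched letters in capitals.
Fbn1, chr2:125126608-125126628, minus strand: accaaatgGTAGTggattctc
Lamb1, chr12:32012637-32012657, plus strand: tcgaaaaaGTAGTatattctg
Col5a2, chr1:45431375-45431395, minus strand: atctcctgGTAGTttttgttc
Vcan, chr13:89795770-89795790, minus strand: aaatcaatGTAGTatgctagt
Col5a3, chr9:20574925-20574945, minus strand: tcctttccATAGTtgagcact
Col6a1, chr10:76171648-76171668, minus strand: ccctcaaaATAGTgacttgtc
Col12a1, chr9:79448319-79448339, minus strand: ttttggctATAGTcacaggtg
A match of 5 letters is a description of the sequence and not a binding site.

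Since several of these mRNAs moved together, the 250 bases before the annotated start are given for the 3 genes below (RefSeq, GRCm38.p6), 5′ to 3′ on the strand of the gene. The table of starts held 57 entries for 52 of the 70 genes. Capitals mark the GC box core GGGCGG, the CCAAT box (its 5 letters), the TATA box letters TATAAA and the AP-1 letters TGANTCA, on either strand.
Tnc, chr4:64047016-64047265, minus strand: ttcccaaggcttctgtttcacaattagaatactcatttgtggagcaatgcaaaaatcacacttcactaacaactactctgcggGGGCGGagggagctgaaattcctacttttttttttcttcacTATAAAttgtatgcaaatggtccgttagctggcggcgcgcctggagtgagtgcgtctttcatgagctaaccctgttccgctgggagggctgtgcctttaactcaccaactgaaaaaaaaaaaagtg
Fbn1, chr2:125506439-125506688, minus strand: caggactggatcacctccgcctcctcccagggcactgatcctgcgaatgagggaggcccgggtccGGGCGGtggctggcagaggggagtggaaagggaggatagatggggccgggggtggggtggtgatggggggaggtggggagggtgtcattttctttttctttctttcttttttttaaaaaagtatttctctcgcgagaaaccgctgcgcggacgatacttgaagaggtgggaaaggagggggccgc
Col5a1, chr2:27886175-27886424, plus strand: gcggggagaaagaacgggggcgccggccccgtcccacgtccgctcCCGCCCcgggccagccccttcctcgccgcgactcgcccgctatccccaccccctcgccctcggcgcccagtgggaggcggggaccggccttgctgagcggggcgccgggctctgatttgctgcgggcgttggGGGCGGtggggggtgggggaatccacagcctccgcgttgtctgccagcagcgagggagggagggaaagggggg
The stretch before Tnc (the upstream of its 2 listed starts) held GGGCGG once and TATAAA once, that before Fbn1 held GGGCGG once, and that before Col5a1 held GGGCGG 2 times. Of the 32851 windows of the same length in the table, GGGCGG stood in 32.7%, CCAAT in 33.8%, TATAAA in 12.4% and TGANTCA in 6.75%. Of the 57 windows of matrix genes they stood in 35, 19, 8 and 1, in the same order. The 3 genes shown thus shared only the GC-rich hexamer, which the windows of the other matrix genes often held as well. Not all genes that fell held it, since the window of Col6a1 had 0 copies of GGGCGG and 1 of TGANTCA. The windows of Vcan, Lamb1 and Col5a3, which also fell, held both GGGCGG and CCAAT.

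Musashi deletion was addressed by 4-OHT in C4 cells, with C1 cells, which lack Cre, given 4-OHT too. Over both lines, 9 of 50 matrix genes fell and 1 rose (edgeR's quasi-likelihood test with line as block), where 5.50% of 11626 genes were called, 2.36% lower and 3.14% higher. The test gives the mean change with 4-OHT over both lines, so the deletion in C4 and 4-OHT itself cannot be told apart in its calls. The genes that fell included inhibitors of metalloproteinases, Timp2 and Timp3, the basement membrane genes Nid2 and Lamc1, and Col12a1, Thbs1, Sparc, Col6a2 and Col8a1.

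Timp3 had 334 and 253 normalised RPKM without and with 4-OHT in C1 cells and 472 and 195 in C4 cells, and its log2 change was −0.84 ± 0.165 (adjusted p = 0.0237). Both lines went down and C4 by more. Col12a1 had 27.9 and 19.6 in C1 cells and 43.8 and 17.1 in C4 cells, with a log2 change of −0.94 ± 0.161 (adjusted p = 0.0146). Thbs1, a glycoprotein that can activate TGF-beta, had 10.3 and 7.83 in C1 cells and 10.5 and 4.02 in C4 cells (−0.89 ± 0.196, adjusted p = 0.0363). Each of these 3 genes ended lower in treated C4 than in treated C1 cells. Nid2, which links laminin to type IV collagen, had 29.0 and 20.9 in C1 and 38.7 and 24.3 in C4 cells (−0.58 ± 0.0730, adjusted p = 0.00572). Timp2 had 230.2 and 173 in C1 and 263 and 189 in C4 cells (−0.45 ± 0.0651, adjusted p = 0.00824). Timp2 moved by nearly the same factor in both lines, and Nid2 fell somewhat more in C4 than in C1 cells.

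Col8a1 had the largest change, −1.62 ± 0.324 (adjusted p = 0.0251), on levels below 1 (0.953 and 0.404 in C1 cells, 0.803 and 0.186 in C4 cells), and it passed the filter on low counts through the untreated libraries alone. Sparc (−0.41), Col6a2 (−0.40) and Lamc1 (−0.34) changed less. Tnc was the gene that rose, with 525 and 634 in C1 and 462 and 550.0 in C4 cells (log2 change 0.25 ± 0.0539, adjusted p = 0.0323), also in C1 cells without Cre. The median of the 50 genes was −0.08, beside −0.00 over all genes. Of 5 mural markers tested, Tagln (−1.34) and Acta2 (−1.04) fell as well, and of 5 astrocyte markers Aqp4 (−0.53) fell, and their part in the result was not tested. Without the line term 0 of 11626 genes passed. In that fit 10 of the 50 matrix genes had an unadjusted p below 0.05, and the number over all genes was not counted. DESeq2 called 6 of 38 matrix genes, beside 514 of all 10048 genes.

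The difference between C4 and C1 could not be tested, because it leaves no residual degree of freedom. In single pairs, none of 35 matrix genes passed 2-fold in C1 cells (0.110% of all genes) and 3 of 35 did in C4 cells, all lower (1.14% of all genes). In C4 cells these were Thbs1 with a log2 ratio of deposited RPKM of −1.33 (95% counting interval −1.46 to −1.19), Col12a1 with −1.30 (−1.34 to −1.26) and Timp3 with −1.21 (−1.26 to −1.16). In C1 cells the same genes had −0.41 (−0.52 to −0.30), −0.52 (−0.56 to −0.47) and −0.41 (−0.45 to −0.36). The counting intervals of the lines do not overlap for any of the 3, and counting intervals hold no spread between cultures. The 3 genes were picked because they passed 2-fold in C4 cells, which no matrix gene did in C1 cells. Their separate intervals therefore do not test a difference between the lines, and the share over all genes was not counted.

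Matrix mRNAs differed widely between the libraries of E12.5 and E13.5, but so did other genes. In untreated KH2 and tetO-Msi1 cells, 15 of 44 matrix genes were higher and 13 lower at E13.5, where 50.8% of 11893 genes were called, 25.6% higher and 25.2% lower. The stages also differ in library set, depth and the share of reads counted (14.9% to 15.8% against 28.2% to 32.0%), so stage and library set cannot be told apart. The median of the 44 genes was 0.07, beside 0.01 over all genes.

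All 3 main chains of type VI collagen, a microfibrillar collagen near basement membranes, were lower at E13.5. Col6a1 had 8.84 and 7.96 normalised RPKM in KH2 and E12.5 tetO-Msi1 cells and 3.55 and 3.38 at E13.5 (log2 change −1.30 ± 0.189, adjusted p = 2.78e-04). Col6a2 had 2.84 and 1.90, then 0.730 and 0.723 (−1.68 ± 0.347, adjusted p = 0.00242). Col6a3 had 0.927 and 0.368, then 0.127 and 0.0647 (−2.70 ± 0.490, adjusted p = 0.00112), and passed the filter through E12.5 alone. Col12a1 had 27.4 and 28.1, then 8.34 and 6.38 (−1.96 ± 0.134, adjusted p = 1.64e-06). Timp1 had 46.3 and 30.0, then 11.9 and 8.56 (−1.91 ± 0.199, adjusted p = 3.11e-05). For each of these 5 genes the libraries of the 2 stages do not overlap. They were picked among the called genes, so the lack of overlap adds nothing to the calls, and the share over all genes was not counted. Col1a1 (−1.38) and Sparc (−1.07) were lower too.

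In the other direction, Tnr, a tenascin of the mature brain, had 11.3 and 17.9 at E12.5 and 41.8 and 45.4 at E13.5 (log2 change 1.57 ± 0.146, adjusted p = 1.40e-05). Fbn2 had 13.3 and 11.9, then 35.3 and 30.0 (1.34 ± 0.120, adjusted p = 1.07e-05), and Fbn1 rose with it (1.01 ± 0.125). Col9a2 had 1.22 and 2.02, then 3.83 and 6.97 (1.70 ± 0.319, adjusted p = 0.00138). Both fibrillins and the tenascins Tnr and Tnc (0.57 ± 0.134) were thus higher in the E13.5 libraries. Of 5 astrocyte markers tested, 2 were higher and 1 lower at E13.5, with Gfap at 5.86 and 5.37 in KH2 and tetO-Msi1 cells of E12.5 and at 60.2 and 93.4 at E13.5, and of 8 neural stem cell markers 1 was higher and 3 were lower. Their part in the result was not tested. Col11a2 (2.31), Col7a1 (2.21), Thbs1 (2.03) and Mmp2 (1.58) had larger or similar log2 changes at levels below 3 normalised RPKM.

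C1 and C4 cells differed from KH2, tetO-Msi1 and tetO-Msi2 cells in most genes, and line type cannot be told apart from library set here. Untreated at E12.5, 22 of 49 matrix genes were higher and 8 lower in C1 and C4, where 66.3% of 12211 genes were called, 33.0% higher and 33.3% lower. The median of the 49 genes was 0.81, beside 0.00 over all genes. Of the 22 genes, Col19a1, Col8a1 and Lamc3 had passed the filter through C1 and C4 alone and so had to differ.

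The type VI chains again stood out. Col6a1 had 8.84, 7.96 and 3.04 normalised RPKM in KH2, tetO-Msi1 and tetO-Msi2 cells, and 38.5 and 85.9 in C1 and C4 (log2 difference 3.22 ± 0.491, adjusted p = 0.00139). Col6a2 had 2.84, 1.90 and 0.146 against 34.1 and 66.8 (4.93 ± 0.661, adjusted p = 7.90e-04), and Col6a3 had 0.927, 0.368 and 0.104 against 13.9 and 26.1 (5.46 ± 0.563, adjusted p = 2.69e-04). The 3 chains, which are needed together for the trimer, kept the order KH2, tetO-Msi1, tetO-Msi2 from high to low. Thbs1 had 0.599, 0.297 and 0.327 against 10.3 and 10.5 (4.71 ± 0.264, adjusted p = 3.35e-05). Timp1 had 46.3, 30.0 and 17.3 against 122 and 190.1 (2.32 ± 0.375, adjusted p = 0.00182). Col19a1 (4.55) and Col8a1 (3.82) had log2 differences of like size at low levels, and Fbn2, Col11a1, Tnr and Tnc were higher by 2.38, 2.01, 2.08 and 1.49 on the log2 scale.

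Basement membrane genes were called in both directions. Lama5 had 71.4, 77.7 and 95.7 in KH2, tetO-Msi1 and tetO-Msi2 cells, and 25.6 and 30.7 in C1 and C4 (−1.54 ± 0.156, adjusted p = 2.51e-04). Col4a1 had 85.6, 95.3 and 63.3 against 30.0 and 35.5 (−1.32 ± 0.190, adjusted p = 0.00110), and Lamb2 had 142, 146 and 109 against 63.4 and 68.6 (−1.01 ± 0.146, adjusted p = 0.00113). Hspg2 (−0.78) and Col4a2 (−0.51) were lower as well, whereas Lamc1 was higher (1.06 ± 0.198), with 70.2, 88.3 and 117 against 193 and 189. Lama2 (2.24), Lamc3 (1.95), Lama3 (1.53) and Nid2 (0.98) were higher too. The alpha and beta chains of laminin-521 and its gamma chain therefore differed in opposite directions. Col5a2 (−0.90), Vcan (−0.87) and Col9a3 (−0.63) completed the 8. Mesenchymal markers summed to 53.0 to 134 normalised RPKM in the 6 libraries of the 3 tet lines at E12.5 and to 123 to 195 in those of C1 and C4, and mural markers to 152 to 229 and 218 to 511. Of 5 astrocyte markers tested, 3 were higher and 1 lower in C1 and C4 (median log2 difference 1.99), with Gfap at 5.86, 5.37 and 0.08 against 183 and 472 in untreated cells. Of 8 neural stem cell markers, 1 was higher and 4 were lower, with Hes5 at 789, 804 and 524 against 25.5 and 21.7. The part of these markers in the result was not tested.

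**Figure D4:**
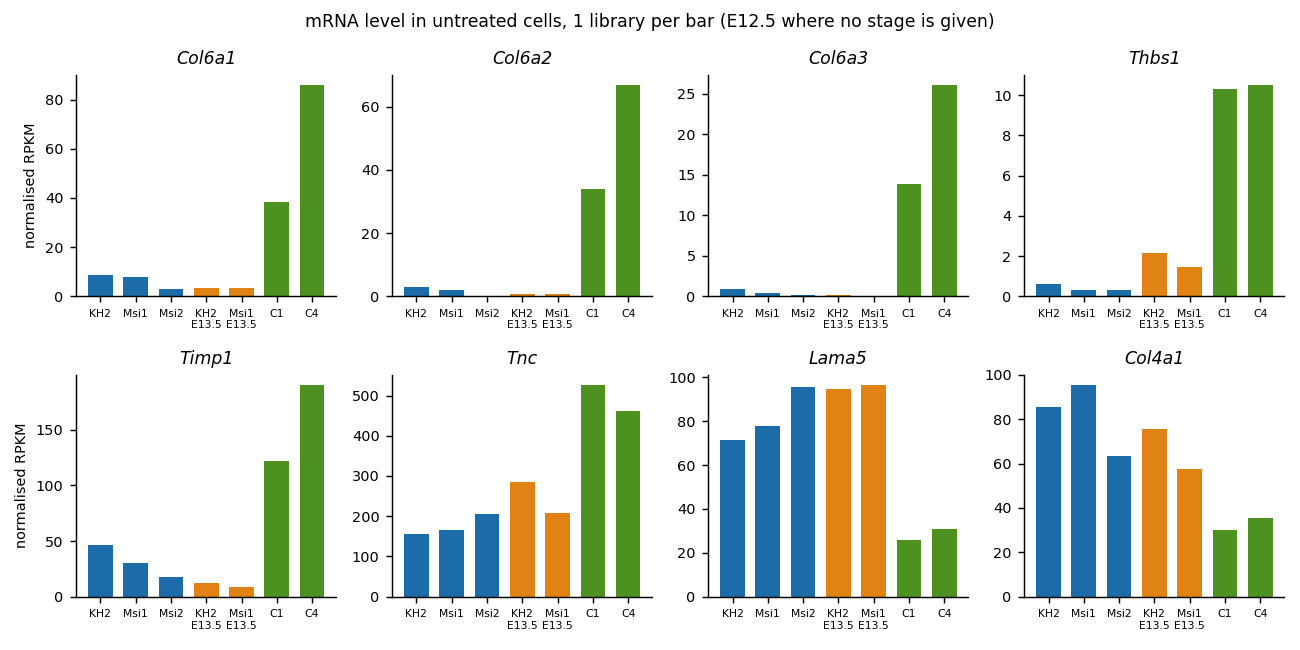
Normalised RPKM (bars from 0) of 8 genes in the 7 untreated libraries, blue for E12.5, orange for E13.5 and green for C1 and C4. The type VI collagen chains, Thbs1 and Timp1 are highest in C1 and C4, where Lama5 and Col4a1 are lowest.

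Ribo-Seq asked how densely matrix mRNAs were covered by ribosomes. Translational efficiency (TE) is the deposited footprint RPKM divided by the deposited mRNA RPKM, and was placed among all genes with more than 5 reads in both libraries, so that scale differences between libraries drop out. Matrix genes lay above the middle of that ranking in all 4 lines. In untreated KH2 cells 28 of 31 matrix genes were above the median of all genes (90.3%, exact 95% interval 74.2% to 98.0%) and in tetO-Msi1 cells 33 of 39 (84.6%, 69.5% to 94.1%). In C1 cells 33 of 46 were (71.7%, 56.5% to 84.0%) and in C4 cells 33 of 43 (76.7%, 61.4% to 88.2%). The intervals cover counting of genes only, and genes are not replicates. The median percentile of the matrix genes was 90.4 in KH2, 90.0 in tetO-Msi1, 66.8 in C1 and 75.9 in C4 cells, and with more than 100 reads in both libraries it was 87.3, 91.7, 58.0 and 70.8.

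For 30 genes the percentile was known in all 4 lines, and 15 of them had the same counted exons in both assays by length. Vcan lay between the 94.8 and 96.1 percentile, the tightest range near the top, followed by Lamc1 (88.3 or more), Col12a1 (83.4 to 97.3) and Lama1 (83.4 to 95.1). Of these 4 genes, Lama1 alone had equal lengths, and Lamc1 (401 nt of exons for footprints and 3704 for mRNA), Col12a1 (764 and 6514) and Vcan (215 and 342) compare different exons. Bcan was below the median of all genes in every line, between 22.2 and 45.9, on 634 to 5502 footprint reads. Timp2 was below it in tetO-Msi1, C1 and C4 cells (28.4 to 38.9) and at 54.2 in KH2 cells. Ncan, the companion proteoglycan of Bcan, lay at 91.3 and 91.6 in KH2 and tetO-Msi1 cells and at 49.1 and 62.3 in C1 and C4. Lama5 lay at 95.9 and 96.7 in KH2 and tetO-Msi1 cells and at 44.4 and 65.7 in C1 and C4, and Fbn2 at 94.3 and 94.7 and at 40.4 and 32.2. Col4a1 lay at 90.0 and 91.8, and at 39.0 in C1 but at 76.0 in C4 cells. Tnc changed its rank little, with 55.7, 67.2, 63.6 and 77.4 in KH2, tetO-Msi1, C1 and C4. The medians of the 12 collagens among the 30 (90.2, 91.9, 63.0 and 71.6), of the 6 laminins (89.8, 92.1, 69.6 and 75.7) and of the 12 others (92.4, 91.4, 62.8 and 75.1) in that order of lines were close to each other. The difference between the line types, which is also one of library sets, was not tested.

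**Figure D5:**
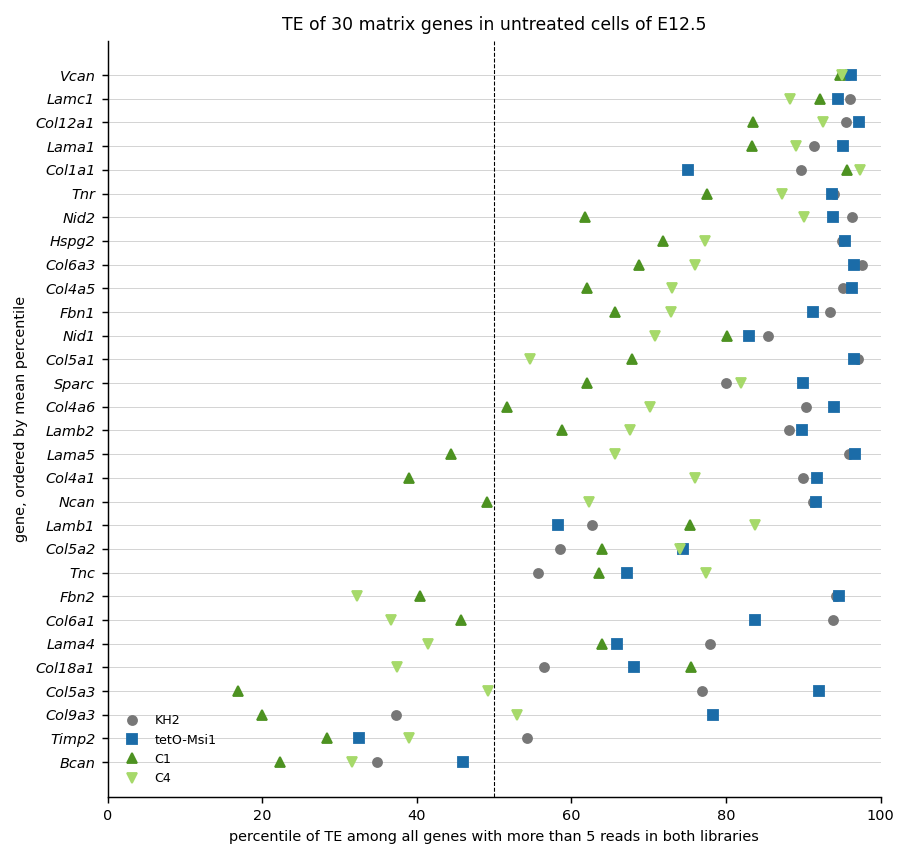
Percentile of TE among all genes with more than 5 reads in both libraries (0 to 100, dashed line at 50) for 30 genes in untreated KH2, tetO-Msi1, C1 and C4 cells, 1 point per line. Vcan and Lamc1 stay near the top in all 4, Bcan stays below 50 in all 4, and for Ncan, Lama5 and Fbn2 the KH2 and tetO-Msi1 points lie well to the right of the C1 and C4 points.

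Tnc, Fbn1 and Col5a2, whose mRNAs fell with Msi1, also had lower footprint values, and Ncan, the most abundant matrix mRNA, is given beside them although its mRNA did not pass the test. In E12.5 tetO-Msi1 cells, Tnc had a footprint RPKM of 9.38 without and 6.11 with Dox (592 and 115 reads), Fbn1 1.47 and 0.526 (355 and 38 reads), Col5a2 8.18 and 4.83 (182 and 32 reads) and Ncan 107 and 87.5 (11464 and 2791 reads). The log2 ratios were −0.62 (95% counting interval −0.91 to −0.33) for Tnc, −1.48 (−1.96 to −0.995) for Fbn1, −0.76 (−1.30 to −0.22) for Col5a2 and −0.29 (−0.35 to −0.23) for Ncan, beside a median of 0.03 over all genes. In KH2 cells the same ratios were 0.18 (−0.11 to 0.47), −0.25 (−0.62 to 0.12), 0.02 (−0.54 to 0.59) and 0.09 (0.04 to 0.14), beside a median of 0.10. Over the 28 matrix genes with more than 5 reads in all 4 libraries of tetO-Msi1 cells, the median log2 ratio was −0.42 for footprints and −0.36 for mRNA, and 0.09 for TE, beside 0.05 for the TE of all 7049 genes. In the median of these 28 genes footprints thus followed mRNA, and the TE interval of Tnc (log2 0.18, −0.12 to 0.48) and of Fbn1 (−0.33, −0.85 to 0.18) held 0. The deposited mRNA RPKM of Ncan was 146 without and 101 with Dox, so its footprints fell by less than its mRNA.

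By the study's limits for translational targets (a TE change of at least 3-fold with mRNA changed less than 1.5-fold, and over 5 reads in each of the 4 libraries), matrix genes gave few calls outside C1. None of 30 passed in KH2 cells, where 1.10% of all genes did, and 1 of 20 in tetO-Msi1 cells (1.29% of all genes). This was Col18a1, the collagen that gives rise to endostatin, with a TE of 0.375 without and 1.13 with Dox on 12 and 9 footprint reads, a log2 change of 1.59 with a counting interval of 0.33 to 2.85. In C4 cells 1 of 34 passed (2.60% of all genes). This was Lama2, with a TE of 0.0873 and 0.274 on 6 and 13 footprint reads, a log2 change of 1.65 with a counting interval of 0.23 to 3.07. Neither had more than 20 footprint reads in both libraries. In C1 cells 17 of 40 matrix genes passed, all lower, where 38.5% of all genes did, because the TE of all genes was lower in the treated library by a median log2 of −1.46. With TE centred on that median, 0 of 40 passed.

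Genes that work with these proteins were described from fixed lists. Of enzymes and chaperones of collagen processing, 1 of 21 rose and 2 fell in tetO-Msi1 cells with Dox, with Loxl2, a collagen cross-linking oxidase, at a log2 change of −0.89 ± 0.177 (adjusted p = 1.11e-04) and Loxl3, of the same family, at 0.85 ± 0.195 (adjusted p = 0.00135). Beside these counts, 1.78% of all genes rose and 1.82% fell in this test. Of matrix receptors, 2 of 27 rose and 2 fell, with the collagen-binding integrin chain Itga2 at 1.02 ± 0.179 (adjusted p = 5.27e-06) and the laminin-binding Itga6 at −0.65 ± 0.152 (adjusted p = 0.00184). Of other matrix genes, 2 of 35 rose and 4 fell, among them Has2, a hyaluronan synthase, at −0.76 ± 0.194 and Bgn, a small proteoglycan, at 1.14 ± 0.336. Of matrix proteases and their inhibitors 1 of 20 changed, Adam9 at −0.78 ± 0.154. The medians of the 4 lists were −0.11, −0.23, −0.14 and 0.02.

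With 4-OHT, where 3.14% of all genes were higher and 2.36% lower, 3 of 22 collagen processing genes changed (1 higher, 2 lower), 2 of 25 receptors (both lower, Cd36 and Itga3), 6 of 35 other matrix genes (2 higher, 4 lower) and 4 of 21 proteases and inhibitors (2 higher, 2 lower). Fibronectin (Fn1) fell by 0.33 on the log2 scale and Fbln5, an elastic fibre protein, had −1.28 ± 0.254 (adjusted p = 0.0251). Timp4, an inhibitor of metalloproteinases, had 0.66 ± 0.0898. The medians of the 4 lists lay between −0.11 and 0.03.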

How the data were processed

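RNA-Seq was read for 13 conditions of mouse cortical NSCs in 14 files, the E13.5 tetO-Msi1 cells without Dox having 2 technical replicates that were summed as counts and averaged as RPKM, and Ribo-Seq for 8 conditions. The files deposited by the authors hold read counts per gene over constitutive exons and the RPKM made from them in mm9 coordinates, and per the labels Bowtie and TopHat were used, with versions not given in the sources used here. RPKM is relative to all mapped reads, of which the counted share differed between library sets.

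Counts were tested with edgeR 4.0.16 in R 4.3.3 (quasi-likelihood test, TMM, genes kept from 1 CPM in 2 libraries of the fit, Benjamini-Hochberg adjusted p below 0.05 over all genes tested), with line or stage as block, since each condition had 1 library. DESeq2 1.42.0, its size factors, no filter, no block and leaving out each pair or library were alternatives. On simulated counts for the test of Msi1 induction, 197 of 200 genes changed 4-fold were recovered among 11776, with 8 others called. The simulation gave all genes the same spread and the stages no difference. The matrix genes called in this test changed by less than 4-fold, and recovery at their sizes was not simulated. Within pairs, the counts of genes past 2-fold in mRNA and the medians beside them used log2 ratios of RPKM + 0.5. Log2 ratios of single genes used deposited RPKM with nothing added. Their counting intervals of 95% cover counting error only. TE was footprint RPKM over mRNA RPKM, and 59.8% of genes had equal counted lengths in both assays, so TE partly compares different exons. Normalised RPKM used counts, deposited lengths and TMM factors.

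Members and lists were chosen with earlier results of these data known. Genes given with values were the 12 with the highest mean mRNA level, those past a threshold (up to 6 in each direction by size, other called genes being added after their values were seen), those past a pair's limits, head-to-head collagen pairs, and chains of laminin and type VI collagen. Sequences of 2 genes were not used here, and single values of some genes are not reported here.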

Additional observations from a re-analysis of the deposited data

Results flagged for a closer look

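Among matrix genes with a mean RPKM of 1 or more in these 4 pairs, 3 had a KH2 pair that moved one way with Dox and 3 induced pairs that moved the other way, with no counting interval that held 0, in log2 ratios of deposited RPKM. Only matrix genes were screened, and the share of all genes that meet the same rule was not counted. Col11a1 had 0.48 in KH2 cells and −0.60, −0.80 and −0.48 in E12.5 tetO-Msi1, tetO-Msi2 and E13.5 tetO-Msi1 cells. Col5a1 had 0.32 in KH2 cells and −1.02, −0.40 and −1.02 in the same order. Lamb1 had 0.14 in KH2 cells and −0.77, −0.27 and −0.30. The difference was tested as the term for induction beyond Dox in edgeR, where the adjusted p was 0.949, 0.937 and 0.949, so none of the 3 passed. The KH2 control is 1 pair of libraries.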

How the results depend on the processing

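The tests of Dox, 4-OHT and stage pair libraries within a line or stage as the block, and the labels give no replicate numbers for another pairing. The counts of matrix genes called changed as follows. For induction beyond Dox (0), no filter on low counts gave 3 and leaving out a pair 1 to 2. Over all genes these repeats called 20 and 8 to 20. For Dox in tetO-Msi1 cells (13), DESeq2 gave 8 and no block 0, and over all genes DESeq2 called 104 in place of 430. For Dox in the 3 lines (2), no filter gave 13, DESeq2 0 and no block 0, and leaving out a pair gave 1 (without tetO-Msi2) to 14 (without KH2). Over all genes this test called 54, 437 without the filter and 510 without KH2. For 4-OHT (10), DESeq2 gave 6 and no block 0, and over all genes DESeq2 called 514 in place of 639.

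For 2-fold mRNA changes within pairs, a limit of 1.5-fold gave 1 in KH2, 6 in E12.5 tetO-Msi1, 3 in tetO-Msi2 and 11 in E13.5 tetO-Msi1 cells. Over all genes in KH2 and E12.5 tetO-Msi1 cells, 48 were higher and 48 lower of 10165, and 171 and 173 of 10180. In tetO-Msi2 and E13.5 tetO-Msi1 cells these counts were 206 and 104 of 10069, and 622 and 258 of 10700. A pseudocount of 0.1 gave 1 in KH2 and 1 in E12.5 tetO-Msi1 cells, and in E13.5 tetO-Msi1 cells a pseudocount of 2 or a mean RPKM of at least 5 gave 1. For TE, a 2-fold limit gave 2 of 30 in KH2, 2 of 20 in tetO-Msi1, 31 of 40 in C1 and 3 of 34 in C4 cells. Over all genes in C1 cells, this limit gave 23 higher and 7376 lower of 9179. In KH2, tetO-Msi1 and C4 cells it gave 318 and 180 of 6974, 306 and 132 of 6809, and 261 and 658 of 7933. Centring TE gave 0 in tetO-Msi1 and 0 in C1 cells, and more than 20 reads gave 0 in tetO-Msi1 and 0 in C4 cells. With more than 100 reads, 95% of matrix genes in tetO-Msi1 cells lay above the median TE. The causes were not tested. Of 452 tested repeats of single called genes, 402 kept the call, 49 lost it, 1 had no adjusted p and none reversed, and 102 repeats with a pair left out had no test. Footprint depth limits TE of low genes, since Col18a1 and Lama2 rest on 6 to 13 reads in a library.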
